A study of Mus musculus with 54 samples.

Results

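The glycolysis and hypoxia response genes followed here are 35 mouse genes, matched by Ensembl identifier in the count tables of all 20 RNA-seq groups. They comprise 4 genes of oxygen sensing, 9 targets of the hypoxia-inducible factors (HIF) outside glycolysis, 6 genes of glycolytic control and transport and 16 genes of glycolytic enzymes. All 35 were found once each among 47729 genes, and all 35 were among the 14625 genes that passed the filter on low counts. No measured value is part of the rule that lists them, but the genes were chosen with earlier results of these data known.

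The series asked which transcription factors hold the fate of mouse extraembryonic endoderm, with cXEN stem cells as the model. It holds 40 RNA-seq libraries in 20 groups of 2. In the Gata6-FKBP and Sox17-FKBP lines the named factor carries an FKBPv degron tag, through which 500 nM dTAGV1 drives destruction of the tagged protein. That treatment is called loss of the factor below, although neither protein was measured here. Each line was read in DMSO (0 h) and after 6, 24, 48, 72 and 96 h of dTAGV1. The genotypes Gata6-FKBP;FoxA2-/- and Sox17-FKBP;FoxA2-/- were read in DMSO and after 48 h of dTAGV1, and parental cXEN cells carried no tag. No tagged line has a DMSO library labelled with a later time than 0 h. Loss of a factor and time in culture can therefore not be told apart in the comparisons with 0 h below. All of these cells grew in Advanced RPMI with 15% fetal bovine serum. A last set, labelled cXEN;Gata6-FKBP by genotype and XEN by title, spent 24 h in N2B27 medium with 1% serum (0 h) and then 24 or 72 h in serum-free N2B27 with 25 ng/ml BMP4. It has no arm without serum and without BMP4, so BMP4, the removal of serum and time in that medium cannot be told apart. Whether a line is 1 clone, and whether the 2 libraries of a group came from separate cultures, is not given in the sources used here.

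HIF is a transcription factor made of an oxygen-regulated alpha subunit and a constant partner. In oxygen, prolyl hydroxylases of the Egln family mark the alpha subunit for destruction by the Vhl ubiquitin ligase; when oxygen is short, the subunit persists and switches on genes for glucose uptake, glycolysis, lactate export, mitophagy and vessel growth. Extraembryonic endoderm lines the yolk sac and carries nutrients to the early embryo, and the same genes can also respond to growth factors and nutrients in cells that are not short of oxygen. No oxygen level, protein or metabolite was measured in these libraries, and levels below are RNA levels in CPM (counts per 1 M reads on genes), scaled by trimmed mean of M values. They compare libraries for one gene and not genes with each other, since no transcript length was used.

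The libraries held 16.2 to 42.5 M reads on genes, with a median of 21.6 M. Mitochondrially encoded transcripts took 0.492 to 1.69% of them. The summed level of 10 markers of extraembryonic and primitive endoderm was between 17131 and 49313 CPM over the 20 groups, and none of the 10 was at 0 in any group. The sum does not show each marker. In unscaled CPM, Lama1 and Sparc had medians of 15411 and 8838, and Col4a1 ran from 0.934 to 15058 over the libraries. Gata6 and Sox17 RNA do not report loss of the proteins: Gata6 RNA was 271 and 267 CPM at 0 h and 318 and 310.5 after 48 h of its degradation, and Sox17 RNA 256 and 274 and 235 and 251 after its own. Foxa2 RNA remained in the FoxA2-/- lines, at 112 and 112 CPM in the Gata6-FKBP line and 85.3 and 90.7 in the Sox17-FKBP line, and does not check the mutation. The 2 libraries differed most from each other in the BMP4 24 h group (chi-square per degree of freedom 48.8) and the Sox17 24 h group (33.5), against 1.42 to 14.6 in the other 18.

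HIF binds a short core, ACGTG or GCGTG, in promoters and enhancers, so the promoters were read first. RefSeq windows of the build GRCm38.p6 were at hand for 31 of the 35 genes and not for Epas1, Bnip3l, Ndrg1 and Slc2a3. In the 250 bases before an annotated start, ACGTG on either strand (which includes every CACGTG) occurred in at least 1 window of 19 of the 31 genes (61.3%), against 18.5% of 27025 genes with a window. Either core occurred for 28 of 31 (90.3%), against 41.5%. A gene with more windows has more places for a match. Counted by window, ACGTG occurred in 46.8% of the members' 47 windows, against 16.6% of 32851, and either core in 76.6% against 38.6%. Base composition differed too, since the members' windows had a median of 14 CpG and all windows 6. Printed here are 6 promoters, whose genes have different roles and rose after loss of Gata6, after loss of Sox17 and after 72 h of BMP4. Each is the first window listed for its gene, 5′ to 3′ on the gene's strand, ending at the base before the start, with matches to either core, on either strand, in capitals.
Egln3: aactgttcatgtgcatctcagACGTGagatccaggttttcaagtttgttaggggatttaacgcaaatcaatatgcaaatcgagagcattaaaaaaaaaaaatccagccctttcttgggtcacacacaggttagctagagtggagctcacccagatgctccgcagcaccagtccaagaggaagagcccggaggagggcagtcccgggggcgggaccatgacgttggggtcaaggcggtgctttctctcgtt
Bnip3: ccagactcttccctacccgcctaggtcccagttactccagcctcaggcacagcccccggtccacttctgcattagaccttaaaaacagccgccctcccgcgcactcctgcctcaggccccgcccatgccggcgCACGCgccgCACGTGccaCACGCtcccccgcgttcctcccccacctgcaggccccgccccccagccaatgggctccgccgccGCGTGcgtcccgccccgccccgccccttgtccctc
Ankrd37: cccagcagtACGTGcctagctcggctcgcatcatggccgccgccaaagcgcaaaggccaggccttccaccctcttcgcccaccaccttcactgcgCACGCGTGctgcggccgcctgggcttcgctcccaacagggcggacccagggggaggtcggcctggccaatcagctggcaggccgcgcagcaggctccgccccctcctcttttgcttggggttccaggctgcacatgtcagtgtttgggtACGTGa
Slc16a3: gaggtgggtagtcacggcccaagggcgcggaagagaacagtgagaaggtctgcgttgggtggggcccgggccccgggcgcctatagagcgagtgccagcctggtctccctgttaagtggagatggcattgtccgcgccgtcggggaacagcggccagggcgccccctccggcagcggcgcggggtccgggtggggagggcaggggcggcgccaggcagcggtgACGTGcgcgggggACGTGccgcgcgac
Ldha: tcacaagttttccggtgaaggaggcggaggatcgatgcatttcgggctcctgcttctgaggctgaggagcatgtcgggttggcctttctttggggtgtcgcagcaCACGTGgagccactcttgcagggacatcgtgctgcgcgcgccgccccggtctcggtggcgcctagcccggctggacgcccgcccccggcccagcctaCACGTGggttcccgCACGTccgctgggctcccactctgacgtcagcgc
Tpi1: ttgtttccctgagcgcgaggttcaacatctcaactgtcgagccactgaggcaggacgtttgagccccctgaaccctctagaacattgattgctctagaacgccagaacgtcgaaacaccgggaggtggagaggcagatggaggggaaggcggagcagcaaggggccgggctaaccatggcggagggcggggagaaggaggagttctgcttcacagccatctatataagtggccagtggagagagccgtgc
The windows are chr12:54203875-54204124 (minus strand), chr7:138909507-138909756 (minus), chr8:45999851-46000100 (minus), chr11:120948817-120949066 (plus), chr7:46845554-46845803 (plus) and chr6:124814159-124814408 (minus). Ldha, for lactate dehydrogenase A, held CACGTG at 145 and at 48 bases before its start and a further CACGT at 34 bases before it. Egln3 held a single match, 229 bases before its start, and Tpi1 none. A match is a description of letters and not of binding, and the absence of one covers these letters in this window alone.

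After loss of Gata6 few of the 35 genes were called in the first day, and most were called higher from 48 h on. At 6 h 2 of 35 were higher and 2 lower (background 3.43% and 10.4% of all tested genes called in each direction), and at 24 h 2 were higher and 3 lower (background 7.11% and 14.3%). The early calls were Slc2a3 and Hk1, the ubiquitous hexokinase, higher at both times, and Hif1a and Kdm3a lower at both, joined by Bnip3l at 24 h. Without replicate 1 of 0 h these counts were 0 and 2 in all, and without replicate 2 they were 11 and 9. Without the 4 libraries of BMP4 24 h and Sox17 24 h, whose replicates stood far apart, 14 were higher and 3 lower at 6 h, and 8 and 3 at 24 h. At 48 h 25 were higher and 1 lower, where 18.2% of all genes were called higher and 21.9% lower. The median log2 change over the 35 was 0.58, beside 0.00 over all tested genes. The counts were 25 and 1 at 72 h (background 17.8% and 21.9%) and 24 and 2 at 96 h (background 18.2% and 22.1%). The step from 24 to 48 h, compared directly, raised 21 genes and lowered 2 (background 27.2% and 26.9%). In bulk RNA more cells of a type and more RNA per cell cannot be told apart. The endothelial marker list of 6 genes, with Emcn at 0 in every library and Cdh5 the most abundant, summed to 351 to 354 CPM at 0 h and 684 to 703 at 48 h, and its part in the result was not tested. Reads outside genes also moved, from 5.66 to 6.11 per 100 gene reads at 0 h to 7.01 to 8.15 at 48 to 96 h. With the log2 of that measure as a covariate, 28 of the 35 were higher and 1 lower at 48 h.

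**Figure D1:**
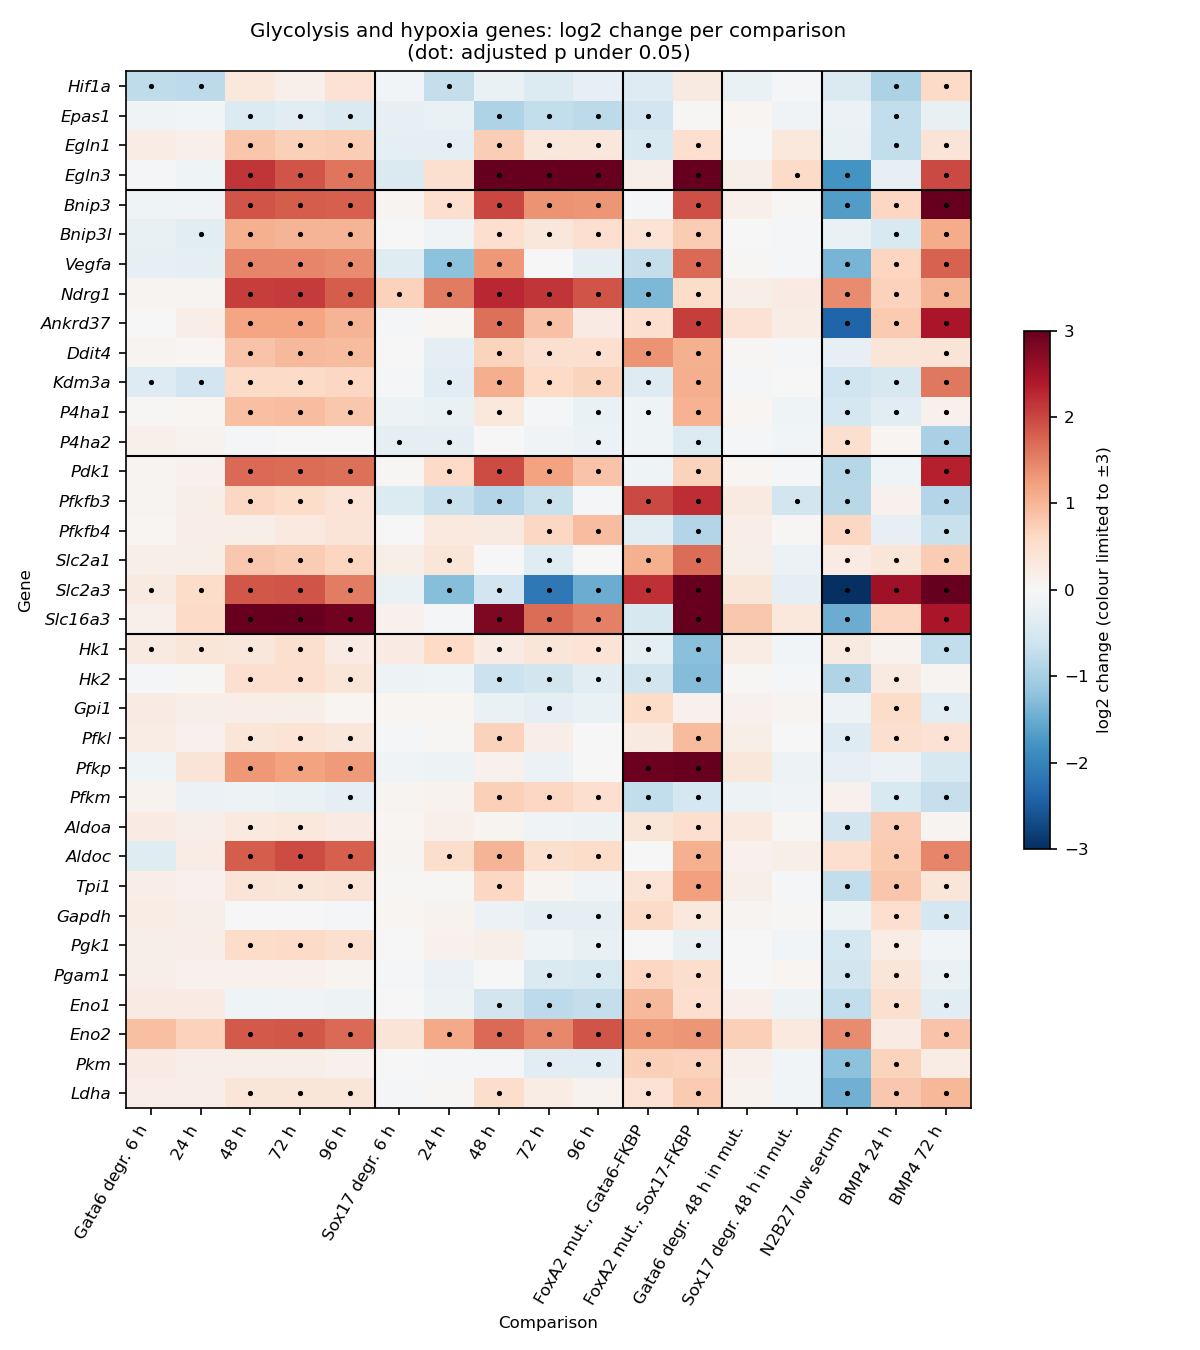
Log2 change of the 35 genes (rows, grouped by role with black lines between oxygen sensing, HIF targets outside glycolysis, glycolytic control and transport, and glycolytic enzymes) in 17 comparisons (columns), with red higher, blue lower and a dot for an adjusted p under 0.05. The Gata6 columns turn red between 24 and 48 h with 25 genes called higher at 48 h, and both columns of dTAGV1 in FoxA2 mutant cells stay near white.

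Of the sensing genes, Egln3, a hydroxylase that is itself a HIF target, was read at 28.4 and 35.2 CPM at 0 h, 30.7 and 27.9 at 24 h and 143 and 140.4 at 48 h of Gata6 loss (2.16 ± 0.15, adjusted p = 7.1e-12; here and below a log2 change ± its standard error, edgeR's quasi-likelihood test with Benjamini-Hochberg adjustment). It was 93.1 and 101 at 96 h, lower than at 48 h and above every library up to 24 h. Egln1, the main hydroxylase of HIF alpha, went from 115 and 134 to 221 and 221 CPM (0.82 ± 0.09, adjusted p = 4.1e-08). Of the alpha subunits, Epas1, the HIF-2 alpha gene, fell from 1149 and 1131 to 851 and 869 CPM (-0.41 ± 0.11, adjusted p = 0.0054). Hif1a, the HIF-1 alpha gene, stood at 186 and 133 CPM at 0 h, with the replicates far apart, 89.6 and 98.8 at 6 h, 89.6 and 95.7 at 24 h and 197 and 199 at 48 h. It was lower at 6 h (-0.76 ± 0.20, adjusted p = 0.017) and 24 h (-0.78 ± 0.20, adjusted p = 0.0078), 2 calls that were lost without replicate 1 of 0 h (adjusted p = 0.43 and 0.26). At 48 h Hif1a did not overlap its 0 h libraries but the change of 0.31 was not called (adjusted p = 0.23). Its 48 h libraries lay further above those at 24 h.

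Among HIF targets outside glycolysis, 8 of 9 rose at 48 h of Gata6 loss and none fell (background 18.2% and 21.9%). Their median log2 change was 1.06. Ndrg1, a stress-induced differentiation gene, went from 33.6 and 41.6 to 158 and 158 CPM (2.07 ± 0.12, adjusted p = 2.3e-13), and Bnip3, a mitophagy receptor, from 50.3 and 55.5 to 197 and 195 (1.89 ± 0.14, adjusted p = 2.9e-11). Its relative Bnip3l rose by 1.06 ± 0.09 to 153 and 165 CPM. For these 3 genes every 48 h library lay above every 0 h library by more than the replicates differed. Vegfa, the vessel growth factor, was read at 95.9 and 110.4 CPM at 0 h, 87.2 and 83.9 at 24 h and 283 and 285 at 48 h (1.46 ± 0.14, adjusted p = 2.8e-09). Ankrd37 (1.19 ± 0.16), the mTOR inhibitor gene Ddit4 (0.85), the histone demethylase gene Kdm3a (0.58) and the collagen prolyl hydroxylase gene P4ha1 (0.89) rose as well. The related gene P4ha2 was not called, at 578 and 661 and then 609.7 and 595 CPM (-0.04, adjusted p = 0.69).

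Control and transport genes moved in the same way, 5 of 6 higher at 48 h (background 18.2%). Slc2a3, the glucose transporter GLUT3, was called higher at 6 h already, from 341 and 399.9 to 447 and 444 CPM (0.27 ± 0.08, adjusted p = 0.036; adjusted p = 0.55 without replicate 1 of 0 h). It reached 552 and 541 at 24 h and 1331 and 1349 at 48 h (1.86 ± 0.09, adjusted p = 5.4e-15). Slc2a1, GLUT1, went from 241 and 277 to 456 and 452 CPM (0.81 ± 0.09). Pdk1, the kinase that holds pyruvate back from the mitochondrion, went from 8.34 and 11.3 to 32.4 and 31.0 CPM (1.69 ± 0.15, adjusted p = 5.6e-10), with no overlap. Slc16a3, which encodes the lactate exporter MCT4, was low at 0.881 and 2.44 CPM and reached 13.4 and 17.4 (3.23 ± 0.32, adjusted p = 4.4e-09). Pfkfb3, which makes the activator of phosphofructokinase, rose by 0.62 ± 0.11, and the related Pfkfb4 was at 3.93 and 6.87 and then 6.15 and 6.00 CPM, not called.

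Among the glycolytic enzymes 10 of 16 rose at 48 h and none fell (background 18.2% and 21.9%), with a median of 0.35. Aldoc, the aldolase C gene, had the largest called change of those at 5 CPM or more, from 2.99 and 3.72 to 11.3 and 12.3 CPM (1.82 ± 0.19), while Aldoa went from 955 and 1103 to 1254 and 1273 with a change of 0.30. Hk2, an inducible hexokinase, went from 385 and 411 to 556 and 564 CPM (0.49 ± 0.08, adjusted p = 2.6e-05). Pgk1, phosphoglycerate kinase, rose from 843 and 982 to 1366 and 1311 (0.55), and Ldha from 1153 and 1337 to 1631 and 1566 (0.36, adjusted p = 0.0048). Hk1 (0.34), Pfkl (0.36) and Tpi1 (0.38) were also called higher, as were Pfkp and Eno2, which reached only 7.24 and 5.39 and 1.86 and 1.46 CPM. Gpi1, Pfkm, Gapdh, Pgam1, Eno1 and Pkm were not called, and Gapdh stood at 1674 and 1916 CPM before and 1783 and 1788 after. Gapdh, Pgk1, Tpi1, Pgam1, Ldha and Eno1 have processed or near-identical copies in the mouse genome; the deposited tables set reads that aligned to several places apart from all genes, so the counts of these genes are uncertain.

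**Figure D2:**
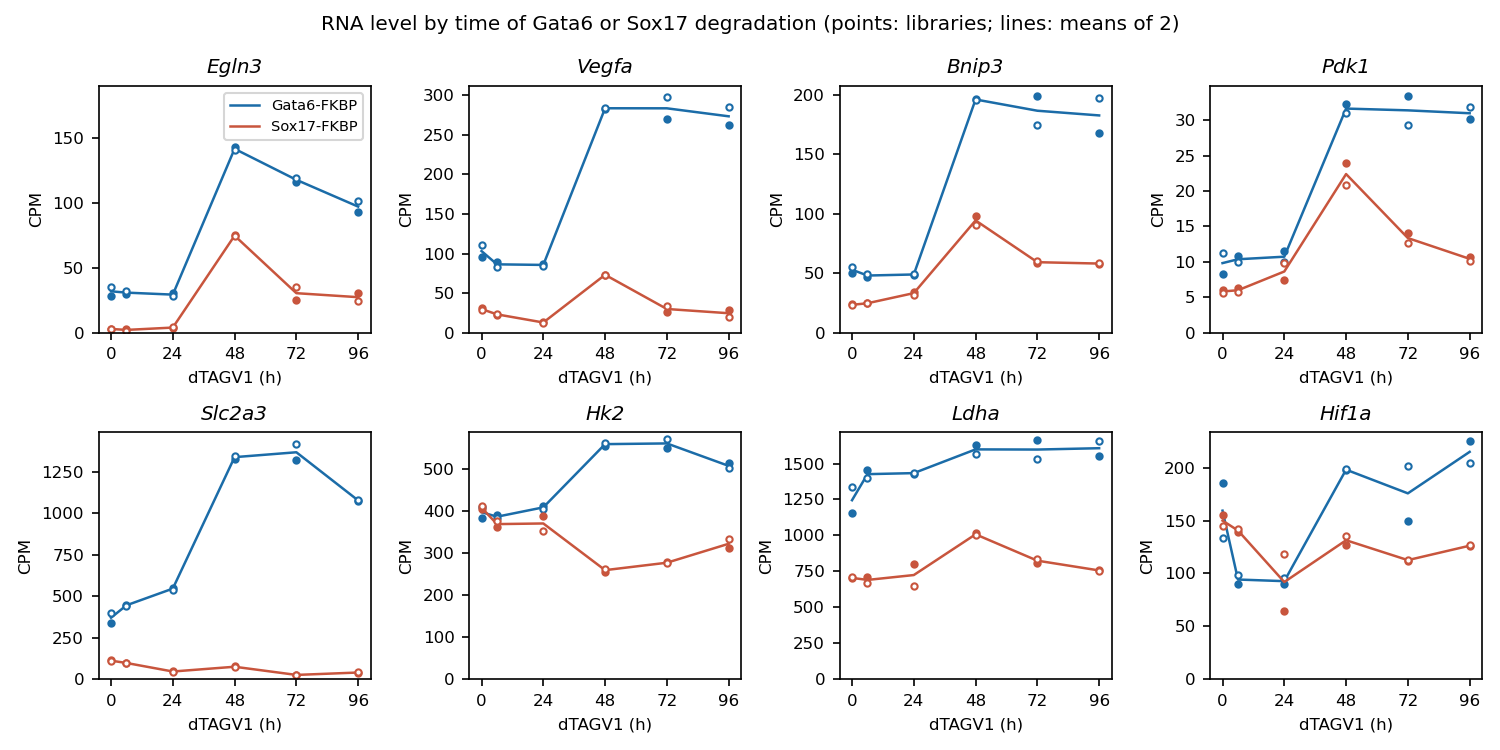
RNA level in CPM (y, from 0) against hours of dTAGV1 (x) for 8 genes in the Gata6-FKBP (blue) and Sox17-FKBP (red) lines, with filled points for replicate 1, open points for replicate 2 and lines through the mean of the 2. Egln3, Vegfa, Bnip3 and Pdk1 rise between 24 and 48 h in both lines, and Slc2a3 and Hk2 rise in the Gata6-FKBP line and are lower in the Sox17-FKBP line.

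After loss of Sox17 some of the genes rose and others fell, and several that rose were highest at 48 h. At 6 h 1 gene was higher and 1 lower (background 0.991% and 0.752%), at 24 h 7 were higher and 8 lower (background 17.4% and 13%), and at 48 h 19 were higher and 5 lower (background 16.3% and 14.6%). The 6 h calls were Ndrg1 and P4ha2, the latter lost with the replicate number as a block (adjusted p = 0.06). A fit of only the libraries compared called 5 in all at 24 h, where the replicates stood far apart. The median at 48 h was 0.31 over the 35 and 0.02 over all genes. At 72 h 15 were higher and 10 lower (background 21.2% and 15%), with a median of 0.08, and at 96 h 14 and 10 (background 23.3% and 17.2%), with a median of 0.01. The step from 24 to 48 h raised 19 and lowered 7 (background 15% and 18.2%).

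Egln3 began far lower in this line, at 2.91 and 2.68 CPM, and was read at 3.80 and 3.92 at 24 h, 75.1 and 74.3 at 48 h, 25.4 and 35.4 at 72 h and 30.4 and 24.2 at 96 h. Its change from 0 h was 4.75 ± 0.18 at 48 h and 3.29 ± 0.18 at 96 h, so that it came part of the way back without reaching the 0 h level. Egln1 rose to 156 and 158 CPM from 93.8 and 94.9 at 0 h (0.73 ± 0.09, adjusted p = 3.8e-07). Epas1 fell from 1431 and 1429 to 729 and 779 CPM (-0.92 ± 0.12, adjusted p = 3.7e-07), and Hif1a, 155 and 145 at 0 h and 127 and 136 at 48 h, was not called then (adjusted p = 0.53). Its lower level at 24 h (-0.71 ± 0.20, adjusted p = 0.0091) came from unlike libraries, at 64.8 and 119 CPM, and was not called without replicate 1 of 24 h (adjusted p = 0.32).

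Of the 9 HIF targets outside glycolysis, 8 rose at 48 h of Sox17 loss and none fell (background 16.3% and 14.6%). Ndrg1 was the earliest, with 40.1 and 38.6 CPM at 0 h, 63.7 and 62.8 at 6 h (0.69 ± 0.12, adjusted p = 0.0008), 126 and 105 at 24 h and 187 and 187 at 48 h (2.25 ± 0.12, adjusted p = 3.9e-14). Each step up to 48 h lay clear of the one before, and the gene was still at 145 and 144 CPM at 96 h. Vegfa took another course, from 30.8 and 28.7 CPM down to 12.8 and 12.7 at 24 h (-1.22 ± 0.16, adjusted p = 1.1e-06), up to 73.2 and 73.0 at 48 h (1.30 ± 0.14, adjusted p = 5.3e-08) and back to 25.8 and 33.9 at 72 h. At 72 and 96 h it was not called against 0 h (adjusted p = 1 and 0.14). Bnip3 went from 23.8 and 22.9 to 98.1 and 90.5 CPM (2.01 ± 0.14, adjusted p = 1.4e-11) and then to 58.0 and 58.1 at 96 h. Kdm3a rose by 1.08 ± 0.11, Ddit4 by 0.67 ± 0.16, Bnip3l by 0.51 and P4ha1 by 0.31, and Ankrd37 reached 4.34 and 4.36 CPM from 1.51 and 1.27. P4ha2 was again not called at 48 h (adjusted p = 0.99).

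The transporters parted from the Gata6 course. Slc2a3 fell from 113 and 110.0 CPM at 0 h to 48.9 and 42.5 at 24 h (-1.28 ± 0.09, adjusted p = 3e-11) and 25.8 and 24.5 at 72 h (-2.15 ± 0.09, adjusted p = 5.1e-16), with a higher reading of 76.1 and 72.9 at 48 h in between. Every library from 24 h on lay below both 0 h libraries. Slc2a1 stood at 188 and 192 CPM at 0 h and 187 and 196 at 48 h, not called (adjusted p = 0.94), and was lower at 72 h (-0.37 ± 0.09). Pdk1 rose from 6.03 and 5.59 to 24.0 and 20.8 CPM (1.95 ± 0.15, adjusted p = 4.5e-11) and was back to 10.7 and 10.2 at 96 h, still above 0 h. Pfkfb3 fell from 9.60 and 9.27 to 5.07 and 5.12 CPM (-0.89 ± 0.12, adjusted p = 1.5e-06) and was at 9.31 and 9.10 again at 96 h. Slc16a3 reached 7.35 and 8.48 CPM from 1.19 and 1.08, and Pfkfb4 rose late, to 12.9 and 14.1 at 96 h from 7.29 and 6.86 (0.93 ± 0.20, adjusted p = 0.00043).

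Of the enzymes, 7 of 16 rose and 2 fell at 48 h of Sox17 loss (background 16.3% and 14.6%). At 72 h 4 were higher and 6 lower (background 21.2% and 15%). Hk2 went down, from 405 and 413 to 256 and 263 CPM (-0.65 ± 0.08, adjusted p = 5.7e-07), while Hk1 rose by 0.25 ± 0.08. Eno1, the main enolase, fell from 626 and 637 to 429.9 and 430.4 and then 363 and 366 CPM (-0.79 ± 0.10, adjusted p = 2.2e-07); the near-identical Eno1b, with which it can share reads, changed by -0.83 at 72 h. Ldha peaked at 48 h, at 1015 and 1000.1 CPM against 701 and 708 at 0 h (0.52 ± 0.10, adjusted p = 0.00019), and Tpi1 likewise, at 625 and 616 against 401 and 402 (0.63). Pfkm, the muscle phosphofructokinase, went from 44.7 and 38.5 to 67.4 and 69.0 CPM (0.72 ± 0.10), and Pfkl rose by 0.68 and Aldoc by 1.02. Pgam1, Pkm, Gapdh and Gpi1 were called lower at 72 h, with changes of -0.42, -0.31, -0.30 and -0.28, the call of Pkm being lost without any 1 of the 4 libraries compared (adjusted p = 0.061 to 0.092). Eno2 was called higher from 24 h on (a log2 change of 1.70 at 48 h) at levels that lay between 0.351 and 1.53 CPM in every Sox17-FKBP library of this course. Pfkp, between 1.60 and 2.64 CPM from 0 to 96 h, was not called, nor were Gpi1, Aldoa, Gapdh, Pgk1, Pgam1 and Pkm at 48 h.

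The difference between the 48 h responses was tested as an interaction, and 12 of 35 responded more upward to loss of Gata6 and 3 more downward (background 6.16% and 11%). Slc2a3 differed by 2.43 ± 0.12, adjusted p = 5.6e-14, Pfkfb3 by 1.51 ± 0.16, adjusted p = 9.6e-08 and Hk2 by 1.15 ± 0.12, adjusted p = 4.6e-08, 3 genes that rose with loss of Gata6 and fell with loss of Sox17. Slc2a1 (0.79), Bnip3l (0.55) and P4ha1 (0.58) rose more with loss of Gata6. Egln3 rose more with loss of Sox17 (-2.59 ± 0.23, adjusted p = 3.8e-09), from a level at 0 h that was lower by 3.51 ± 0.18 than in the Gata6-FKBP line. For Bnip3, Ndrg1, Vegfa, Pdk1 and Hif1a the difference was not called (adjusted p = 0.74, 0.52, 0.65, 0.46 and 0.25), which does not show that the responses were equal.

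The FoxA2 mutation, before any dTAGV1, came with higher RNA of glucose transporters and of most glycolytic enzymes in both lines, while HIF targets outside glycolysis were split between higher and lower in one line and mostly higher in the other. In untreated Gata6-FKBP cells 16 of 35 were higher in the mutant and 9 lower (background 24.6% and 23.7%; median 0.17 against 0.00 over all genes). In untreated Sox17-FKBP cells 26 were higher and 6 lower (background 26% and 24.6%; median 0.77 against 0.02). These compare lines, and a mutation and other differences between lines cannot be told apart. The endothelial marker list summed to 61.1 to 61.4 CPM in the untreated Gata6-FKBP mutant and 97.5 to 103 in the Sox17-FKBP mutant, lower than in the lines with FoxA2 (351 to 354 and 390.0 to 400.4), and its part in the result was not tested.

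Slc2a3 was read at 1721 and 1646 CPM in the untreated Gata6-FKBP mutant against 341 and 399.9 (2.18 ± 0.09, adjusted p = 1e-17), and at 2532 and 2503 in the Sox17-FKBP mutant against 113 and 110.0 (4.50 ± 0.10, adjusted p = 7.3e-24). Across the 20 groups its mean ran from 25.1 CPM in the Sox17-FKBP line at 72 h to 2517 in the untreated Sox17-FKBP mutant. Slc2a1 was higher in both mutants, at 555 and 532 and 621 and 595 CPM (1.07 ± 0.09 and 1.68 ± 0.09). Pfkfb3 was higher too, at 61.9 and 65.4 CPM against 16.8 and 15.6 (1.97 ± 0.11, adjusted p = 5.1e-15) and 44.6 and 43.5 against 9.60 and 9.27 (2.22 ± 0.10, adjusted p = 1.3e-16). No library of either mutant overlapped its line with FoxA2 for these 3 genes.

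**Figure D3:**
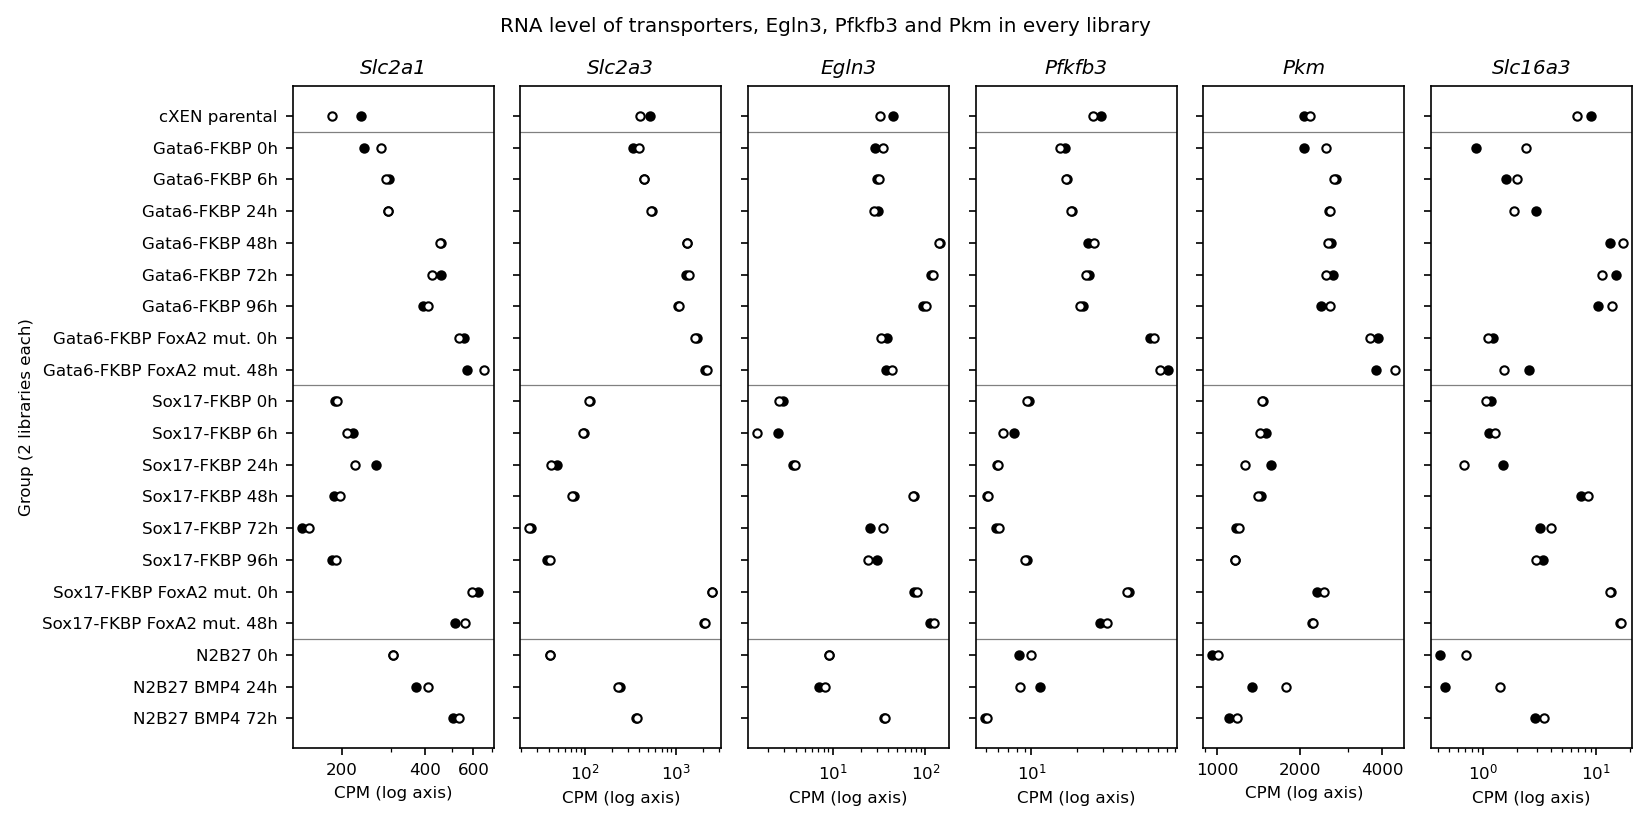
RNA level in CPM (x, log axis) of 6 genes in each of the 20 groups (rows), with a filled point for replicate 1 and an open point for replicate 2. Slc2a1, Slc2a3 and Pfkfb3 stand highest in the FoxA2 mutant groups, and the mean of Slc2a3 runs from 25.1 CPM in the Sox17-FKBP line at 72 h to 2517 in the untreated Sox17-FKBP mutant.

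Pfkp, the platelet phosphofructokinase, went from 2.35 and 2.76 to 19.9 and 19.2 CPM with the mutation in the Gata6-FKBP line (2.93 ± 0.19) and from 2.63 and 1.96 to 18.4 and 18.5 in the Sox17-FKBP line (3.03 ± 0.17). Hk2 was lower in both mutants, at 264 and 277 CPM (-0.56 ± 0.08) and 167 and 164 (-1.30 ± 0.08), and Pfkm likewise (-0.74 and -0.52). Eno1 (0.98 and 0.51), Pkm (0.71 and 0.70), Pgam1 (0.61 and 0.52) and Ldha (0.43 and 0.80) were higher in both. Thus 10 of 16 enzymes were called higher and 3 lower in the Gata6-FKBP mutant (background 24.6% and 23.7%). In the Sox17-FKBP mutant 11 were higher and 4 lower (background 26% and 24.6%). Hk1 fell from 109 and 111 to 47.0 and 45.3 CPM in the Sox17-FKBP mutant (-1.25 ± 0.08), and its value in the other was -0.26.

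For the HIF targets outside glycolysis the counts were unlike. In the Gata6-FKBP mutant 3 of 9 were higher and 4 lower (background 24.6% and 23.7%). In the Sox17-FKBP mutant 8 were higher and 1 lower (background 26% and 24.6%). Egln3 was 38.2 and 33.4 CPM in the first, near its line with FoxA2 (adjusted p = 0.36), and 75.0 and 81.7 in the second against 2.91 and 2.68 (4.81 ± 0.18, adjusted p = 9.9e-19). Vegfa was lower in the first, 62.1 and 63.1 against 95.9 and 110.4 CPM (-0.72 ± 0.14, adjusted p = 0.00011), and higher in the second, 91.6 and 102 against 30.8 and 28.7 (1.70 ± 0.14, adjusted p = 5.2e-11). Ndrg1 fell to 14.9 and 14.5 CPM in the first (-1.35 ± 0.13, adjusted p = 8.9e-10) and was 56.2 and 58.3 in the second (0.54). Bnip3 was 52.7 and 48.5 in the first, not called, and 86.4 and 90.9 in the second against 23.8 and 22.9 (1.93 ± 0.14, adjusted p = 3.4e-12). Ddit4 was higher in both, by 1.34 ± 0.16 and 1.07 ± 0.16. The difference of these differences between the lines was not tested. With the mutation the lines stood closer in Egln3 and Vegfa than without it, and further apart in Ndrg1, as their levels above show.

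In FoxA2 mutant cells the 48 h responses of the set were almost absent from the calls. After 48 h of Gata6 loss 0 of 35 genes were called by edgeR (background 0.239% in either direction), with 7 under an unadjusted p of 0.05 and 1 called by DESeq2. After 48 h of Sox17 loss in the mutant 1 was higher and 1 lower (background 1.52% and 1.23%). Over all tested genes 35 and 403 were called, against 5864 and 4513 in the lines with FoxA2, so few genes of any kind were called in the mutants. Degradation of the proteins in the mutant cells was not tested here.

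The difference itself was called for many members. Against the line with FoxA2, 18 of 35 responded less upward to Gata6 loss and 1 more upward (background 10.9% and 16.1%), and 18 and 3 did so for Sox17 loss (background 7.51% and 6.9%). Bnip3 was 52.7 and 48.5 CPM in the untreated Gata6-FKBP mutant and 58.9 and 53.8 after 48 h, so it began near the level of the line with FoxA2 and stayed there (difference of responses -1.74 ± 0.20, adjusted p = 2.4e-07). Ndrg1 was 14.9 and 14.5 and then 15.0 and 18.0 (-1.90 ± 0.18, adjusted p = 1e-08), and Vegfa 62.1 and 63.1 and then 64.7 and 64.6 (-1.41 ± 0.20, adjusted p = 5e-06). Slc2a3, already high, went from 1721 and 1646 to 2099.9 and 2239 CPM, a change of 0.37 that was not called (adjusted p = 0.061). Pdk1, Slc16a3, Egln3 and Hk2 also differed (-1.63, -2.43, -1.97 and -0.47), and for Ldha the difference of -0.25 was not called (adjusted p = 0.19).

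In the untreated Sox17-FKBP mutant Egln3, Bnip3 and Vegfa stood near or above the 48 h level of the line with FoxA2, Ndrg1 and Pdk1 well below it, and Pfkm and Hk1 below even its 0 h level. Egln3 was 75.0 and 81.7 CPM untreated and 111 and 125 at 48 h, still a called rise (0.59 ± 0.14, adjusted p = 0.014) but smaller than with FoxA2 (difference -4.16 ± 0.23, adjusted p = 5e-13). The rise was not called without replicate 1 or 2 of the untreated mutant or replicate 2 at 48 h (adjusted p = 0.21, 0.081 and 0.23). Bnip3 was 86.4 and 90.9 and then 87.2 and 95.6 (difference -1.97 ± 0.20, adjusted p = 4.5e-08), Vegfa 91.6 and 102 and then 92.0 and 96.9 (-1.33) and Pdk1 9.28 and 9.33 and then 7.88 and 10.01 (-2.0). Pfkfb3 fell from 44.6 and 43.5 to 28.7 and 31.8 CPM (-0.54 ± 0.10, adjusted p = 0.00077), the same direction as with FoxA2 from a far higher start. Epas1, which fell with Sox17 loss in the line with FoxA2, was 1514 and 1410.2 and then 1319 and 1383 CPM (difference 0.81 ± 0.16, adjusted p = 0.00073).

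**Figure D4:**
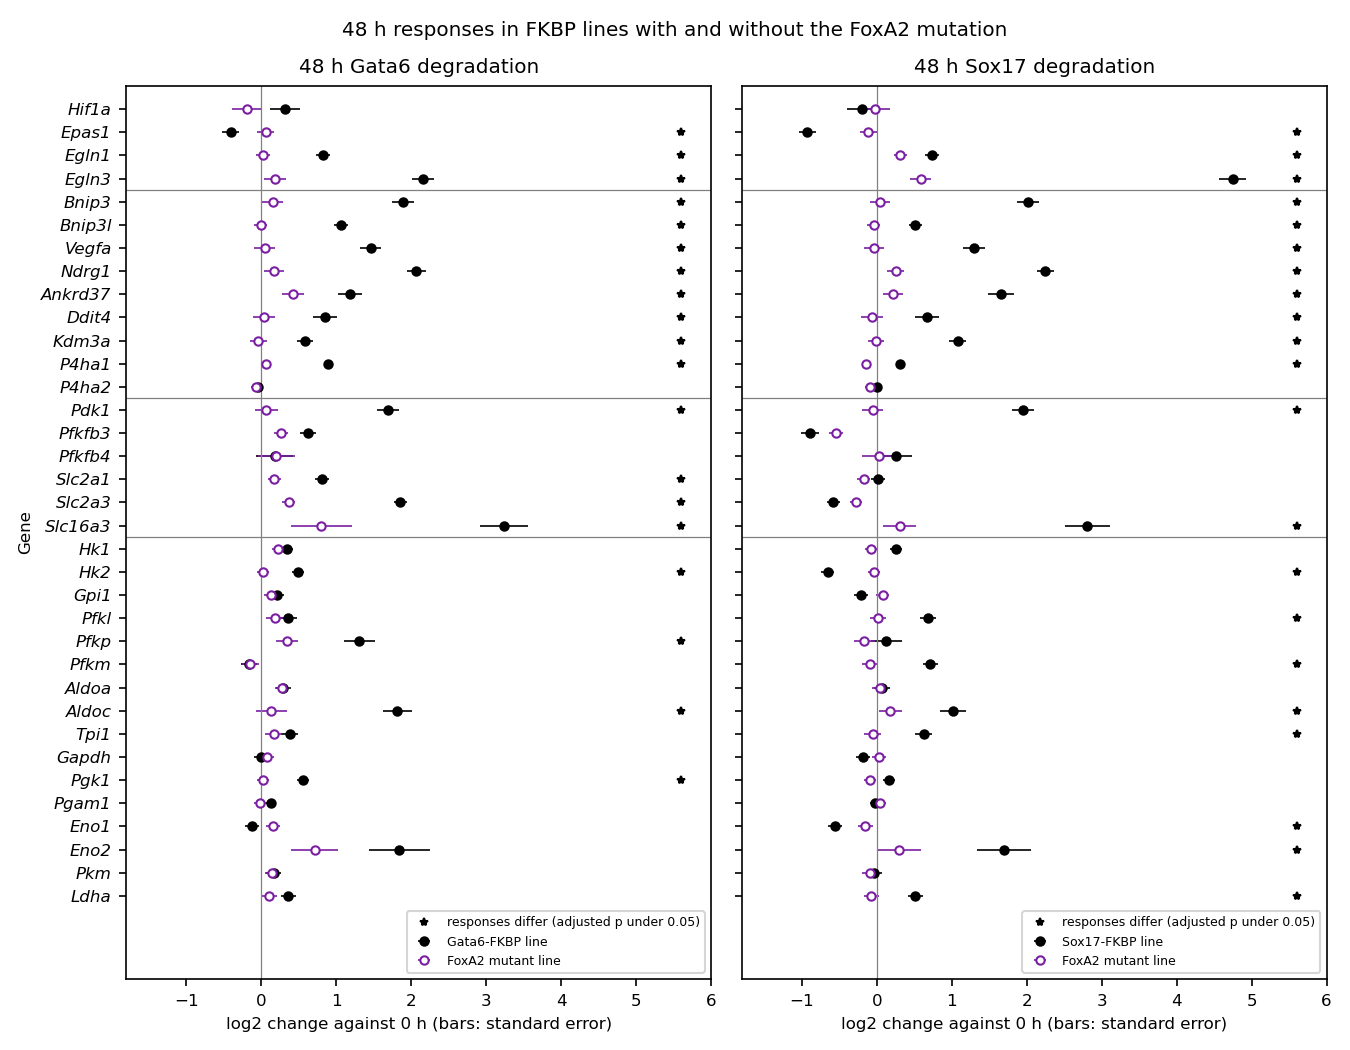
Log2 change at 48 h of dTAGV1 for each of the 35 genes (rows) in the line with FoxA2 (filled) and its FoxA2 mutant (open), Gata6-FKBP at left and Sox17-FKBP at right, with bars of 1 standard error and a star where the 2 responses differ at an adjusted p under 0.05. Open points lie between -0.54 and 0.80 in both panels while filled points reach 3.23 and 4.75, and 19 and 21 genes carry a star.

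Many of the genes were lower in N2B27 before BMP4 was added. Against Gata6-FKBP cells in the standard medium at 0 h, 19 of 35 were lower and 6 higher in N2B27 with 1% serum (background 21.4% and 20.1%), with a median of -0.52 against -0.02 over all genes. Slc2a3 was 41.5 and 41.1 CPM against 341 and 399.9 (-3.17 ± 0.09, adjusted p = 1.7e-19), Ldha 457 and 459 against 1153 and 1337 (-1.44 ± 0.10, adjusted p = 1e-11) and Pkm 959 and 1002 against 2075 and 2499.9 (-1.22 ± 0.10, adjusted p = 2.6e-10). Egln3 (-1.80 ± 0.17), Bnip3 (-1.69 ± 0.15), Vegfa (-1.38 ± 0.15) and Hk2 (-0.91 ± 0.08) were lower too. Ndrg1 went the other way, to 99.7 and 101 CPM (1.42 ± 0.12, adjusted p = 3.3e-10), and P4ha2 rose by 0.49 ± 0.07. The labels do not say that both sets were grown side by side, so medium, serum and the time of the experiment cannot be told apart.

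From that low start, BMP4 in serum-free N2B27 raised 18 of 35 genes and lowered 7 by 24 h (background 21.3% and 22.2%), and raised 20 and lowered 9 by 72 h (background 31.6% and 31.2%). By the calls of the fit over all 40 libraries, the 2 times drew on different roles. At 24 h 12 of 16 glycolytic enzymes were higher and 1 lower, and 3 of the 4 sensing genes were lower. By 72 h the enzymes stood at 5 higher and 6 lower, and 8 of 9 HIF targets outside glycolysis were higher. The direct comparison of 72 with 24 h called 7 of those 9 targets higher and 1 lower, and 1 enzyme higher and 9 lower (background 35.3% and 35%). The split by role is uncertain, since the replicates at 24 h stood far apart. A fit of only the libraries compared called 2 of the 35 at 24 h. With reads outside genes as a covariate, 10 members were higher and 3 lower from 24 to 72 h, in place of 16 and 11.

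At 24 h of BMP4 Hif1a fell from 119 and 118 to 76.6 and 45.4 CPM (-0.95 ± 0.21, adjusted p = 0.00074), Epas1 from 1003 and 1017 to 747 and 454 (-0.75 ± 0.12) and Egln1 from 108 and 109 to 64.2 and 65.5 (-0.74 ± 0.09). Their BMP4 libraries lay below both control libraries, but the 2 differed widely for Hif1a and Epas1. Slc2a3 rose from 41.5 and 41.1 to 246 and 232 CPM (2.53 ± 0.09, adjusted p = 1.7e-17). Tpi1 went from 635 and 634 to 913 and 1338 (0.83 ± 0.11), Ldha from 457 and 459 to 689 and 917 (0.81 ± 0.10) and Gapdh from 1604 and 1648 to 2002 and 2602 (0.50). The replicates of this group stood far apart, and replicate 2 was the higher for each of these 3 enzymes and the lower for Hif1a and Epas1. A fit of only the libraries compared called 2 of the 35 genes in place of 25, and the calls of Hif1a, Epas1, Tpi1 and Ldha were then lost (adjusted p = 0.098, 0.12, 0.087 and 0.07).

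At 72 h the BMP4 replicates were close. Bnip3 was 141 and 164 CPM against 17.9 and 15.0 at 0 h (3.22 ± 0.15, adjusted p = 1.2e-15), Slc2a3 368 and 373 against 41.5 and 41.1 (3.17 ± 0.09, adjusted p = 8.2e-20) and Pdk1 27.2 and 26.99 against 4.67 and 6.09 (2.32 ± 0.16, adjusted p = 1.7e-12). Vegfa (1.76 ± 0.15), Egln3 (1.98 ± 0.17), Kdm3a (1.59 ± 0.11), Bnip3l (1.12 ± 0.09) and Ldha (1.00 ± 0.10) were higher as well. Hif1a was at 173 and 179 CPM, above 0 h (0.57 ± 0.20, adjusted p = 0.015). Lower were P4ha2 (-0.97 ± 0.07), Pfkfb3 (-0.88 ± 0.13), Hk1 (-0.75 ± 0.08) and Gapdh (-0.52). Reads outside genes rose from 5.64 to 5.69 per 100 gene reads at 0 h to 10.3 to 10.4 at 72 h, and mitochondrially encoded transcripts from 0.783 to 0.792% to 1.65 to 1.69%. With reads outside genes as a covariate Gapdh turned to 0.12 and Hk1 was not called (adjusted p = 0.16), and from 24 to 72 h 10 genes were higher and 3 lower.

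Loss of Gata6 at 48 h, loss of Sox17 at 48 h and BMP4 at 72 h share no library. They are not fully independent, since they come from the same fit and the BMP4 set carries the Gata6-FKBP genotype label. 17 of the 35 genes were called higher in all 3, or 48.6%, beside 3.99% of all tested genes, and 0 were called lower in all 3. The 17 were Egln1 and Egln3, the HIF targets Bnip3, Bnip3l, Ndrg1, Ddit4, Vegfa, Ankrd37, Kdm3a and P4ha1, the control and transport genes Pdk1 and Slc16a3, and the enzyme genes Pfkl, Aldoc, Tpi1, Eno2 and Ldha. Neither alpha subunit was among them. Of the 17, Eno2 was low throughout, at no more than 3.88 CPM in any library.

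The untreated lines were themselves far apart. Against parental cXEN, 6 of 35 were higher and 16 lower in the Gata6-FKBP line (background 23.4% and 24.4%) and 1 and 26 in the Sox17-FKBP line (background 25.8% and 31.3%). Pfkp was 24.3 and 27.6 CPM in the parental cells, 2.35 and 2.76 in the Gata6-FKBP line (-3.34 ± 0.18) and 2.63 and 1.96 in the Sox17-FKBP line (-3.52 ± 0.17). Egln3 was 45.2 and 32.5 in the parental cells and lower by 3.80 ± 0.18 in the Sox17-FKBP line, with no call in the Gata6-FKBP line (adjusted p = 0.11). The parental libraries also held RNA of the 7 fibroblast marker genes at a sum of 1199 to 1578 CPM, against 0.0616 to 0.173 in the Gata6-FKBP and 0.360 to 0.388 in the Sox17-FKBP 0 h libraries, where 4 of the 7 were at 0. Its part in these differences was not tested. Between the lines, 21 genes were higher and 2 lower in the Gata6-FKBP line (background 27.4% and 20.6%), among them Slc2a3 (1.73 ± 0.09), Vegfa (1.79 ± 0.15) and Tpi1 (1.39 ± 0.12).

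The genes around the set were read from lists of the HIF pathway, of other glycolysis, gluconeogenesis and pyruvate genes, and of mitochondrial respiration. The other glycolysis, gluconeogenesis and pyruvate genes did not follow the set at 48 h of Gata6 loss. Of 26 tested, 5 were higher and 10 lower (background 18.2% and 21.9%), with a median of -0.04. At 48 h of Gata6 loss 24 of 35 other HIF targets were higher and 2 lower (background 18.2% and 21.9%), with a median of 0.77, the higher ones including Adm, for the vessel peptide adrenomedullin (4.34 ± 0.25), and Loxl2, a collagen cross-linking oxidase (1.22 ± 0.07). Pgm2 and Tfrc were lower (-0.48 and -0.67). At 48 h of Sox17 loss 20 were higher and 1 lower (background 16.3% and 14.6%), led by Gpr146 (1.63 ± 0.10), Loxl2 (1.11 ± 0.07) and Bhlhe40 (1.76 ± 0.14), with Car12 lower (-0.61 ± 0.12). At 72 h of BMP4 19 were higher and 3 lower (background 31.6% and 31.2%).

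Genes of the TCA cycle and of the respiratory chain were mostly lower at 48 h of Gata6 loss and at 72 h of BMP4, and more often higher than lower at 24 h of BMP4. At 48 h of Gata6 loss all 16 TCA cycle genes were lower, with a median of -0.59, and 25 of 27 nuclear genes of respiratory subunits, with a median of -0.53 and none higher (background 21.9% lower). Suclg2, a subunit of succinate-CoA ligase, went from 121 and 121 to 60.5 and 59.3 CPM (-1.01 ± 0.07, adjusted p = 4.9e-12), Idh3a, of isocitrate dehydrogenase, changed by -0.86 ± 0.07, and Uqcrfs1, the iron-sulfur subunit of the third complex, by -0.89 ± 0.09. At 48 h of Sox17 loss 8 of 16 and 7 of 27 were lower (background 14.6%) and none higher, with Idh3a (-0.72 ± 0.07) and Cycs, for cytochrome c (-0.37 ± 0.07), in front. At 24 h of BMP4 17 of 27 respiratory genes were higher and 3 lower, and 5 and 2 of 16 TCA genes (background 21.3% and 22.2%). The replicates of that group stood far apart, and a fit of only the libraries compared called 259 genes of any kind in place of 6371. At 72 h the respiratory counts were 1 and 25 (background 31.6% and 31.2%). In the untreated Gata6-FKBP line 17 respiratory and 10 TCA genes were higher than in the Sox17-FKBP line, and 0 and 1 lower (background 27.4% and 20.6%), where 21 of the 35 were also higher. In the FoxA2 mutant the fall after Gata6 loss was smaller for 15 of 16 TCA and 20 of 27 respiratory genes. That is by the test of the difference, where 16.1% of all tested genes responded more upward. None of either list was called in the mutant itself at 48 h (edgeR, background 0.239% in either direction), with 1 and 6 under an unadjusted p of 0.05.

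**Figure D5:**
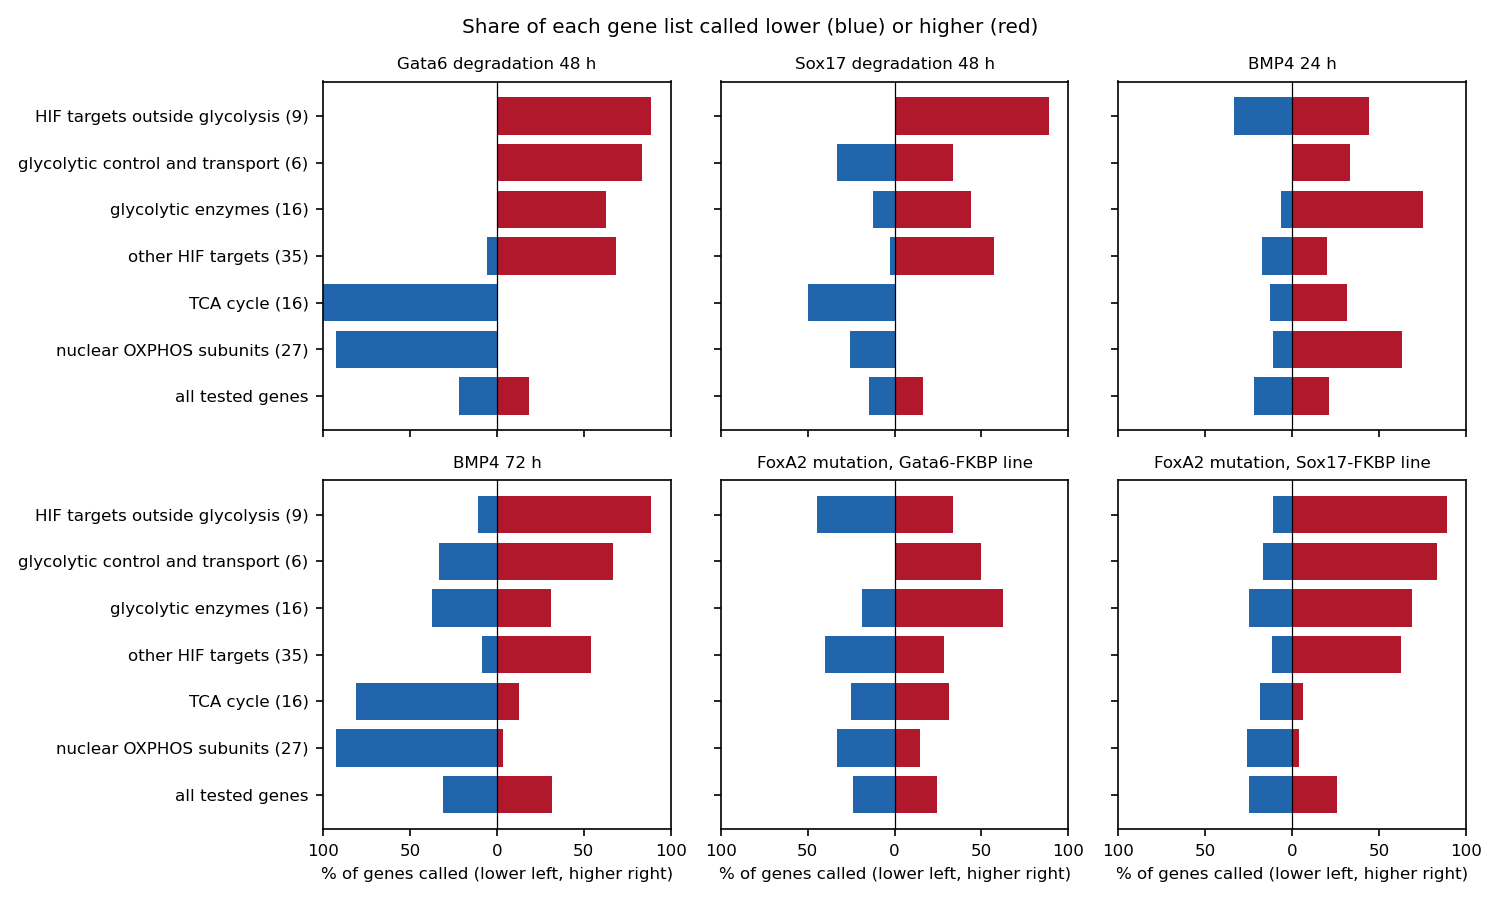
Share of each list called higher (red, to the right) or lower (blue, to the left) at an adjusted p under 0.05 in 6 comparisons, with the number of tested genes of the list in brackets and all 14625 tested genes at the foot. TCA cycle and nuclear OXPHOS (oxidative phosphorylation) genes fill the left side at 48 h of Gata6 loss, where all 16 and 25 of 27 were lower, and at 72 h of BMP4, with 13 and 25 lower.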

How the data were processed

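RNA was read in 40 libraries of total RNA from cXEN cells, 2 in each of 20 groups. Reads were aligned with HISAT2 to mm10 and counted with HTSeq, per the submitters' processing notes; versions, annotation and strand setting are not given in the sources used here. The authors deposited raw counts per Ensembl gene. Reads in no gene, 3.99 to 10.4 per 100 gene reads, stayed out of library sizes. Symbols came from an Ensembl table, and 505 genes had none. The 14 chromatin samples were not analysed here.

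One model was fitted over all 40 libraries with edgeR 4.0.16 in R 4.3.3, with trimmed mean of M values scaling, the default filter on low counts (14625 genes kept), a mean per group and 20 residual degrees of freedom. The biological coefficient of variation was 8.22%. The quasi-likelihood F test was adjusted by Benjamini-Hochberg over all tested genes within each of 23 comparisons and 3 differences of responses, with 0.05 as the threshold. Standard errors are the log2 change over the square root of F. Since no label says that the replicates are separate cultures, the p-values cover the spread of these samples alone, which may be technical. An exact permutation test of 2 against 2 cannot give a p under 0.333, and none was used. The labels do not say that replicate numbers pair libraries, and the model did not pair them. Deviations of same-numbered libraries correlated at -0.149 to 0.147 in 23 comparisons, which does not settle whether they were paired.

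The members and gene lists were chosen with earlier results of these data known. All members are named; full statistics go to called members with a mean of at least 5 CPM and no overlap, up to 8 per direction, and to genes with fixed roles. From each neighbouring list up to 3 genes per direction with the smallest adjusted p are named, except 1 gene that is not reported here. Motifs were sought in the 250 bases before each RefSeq start of GRCm38.p6. The alternatives included DESeq2 1.42.0, median-of-ratios scaling, keeping genes of low counts, only the libraries compared, a replicate block, reads outside genes as a covariate and leaving out each library. Leaving out the 4 libraries of BMP4 24 h and Sox17 24 h was chosen after seeing the data. The procedure was tested on data simulated with each gene's fitted spread, the same in all groups. Such data hold no group whose replicates stand far apart, so that test does not bear on BMP4 24 h and Sox17 24 h.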

Additional observations from a re-analysis of the deposited data

Results flagged for a closer look

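Members whose 48 h response differed by the test of the difference itself are given here with that difference in log2 units. Against the line with FoxA2, the mutant's response to Gata6 loss was -2.43 for Slc16a3, -1.97 for Egln3, -1.90 for Ndrg1, -1.74 for Bnip3, -1.68 for Aldoc, -1.63 for Pdk1, -1.49 for Slc2a3 and -1.41 for Vegfa. Epas1 alone among the called members responded more upward there, by 0.47. The mutant's response to Sox17 loss differed by -4.16 for Egln3, -2.50 for Slc16a3, -2.0 for Pdk1 and for Ndrg1, -1.97 for Bnip3, -1.33 for Vegfa, -1.08 for Kdm3a and -0.83 for Aldoc. Epas1, Hk2 and Eno1 responded more upward, by 0.81, 0.62 and 0.40. The response to Gata6 loss, less that to Sox17 loss, was 2.43 for Slc2a3, 1.51 for Pfkfb3, 1.15 for Hk2, 0.80 for Aldoc, 0.79 for Slc2a1, 0.58 for P4ha1, 0.55 for Bnip3l and 0.52 for Epas1, and -2.59 for Egln3, -0.88 for Pfkm and -0.50 for Kdm3a. Some of these calls were lost under part of the 15 alternatives. For the FoxA2 mutant's response to Gata6 loss that was Epas1 in 7 of them, with an adjusted p of up to 0.126, and for its response to Sox17 loss Eno1 in 9 (up to 0.207) and Aldoc in 2 (up to 0.0868). For the response to Gata6 loss less that to Sox17 loss it was Epas1 in 7 (up to 0.134), Aldoc in 6 (up to 0.207) and Kdm3a in 6 (up to 0.117).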

How the results depend on the processing

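Of 278 called member values, 275 kept direction and call under median-of-ratios scaling, 276 with no filter, 276 under DESeq2, 276 with the replicate block, 245 with only the libraries compared and 250 with reads outside genes as a covariate. Under that covariate 7 turned: Eno1 to 0.047 in the Gata6 step from 24 to 48 h, Eno1, Gapdh and Gpi1 to 0.28, 0.12 and 0.26 at 72 h of BMP4, and Aldoa, Hif1a and Pgam1 to 0.20, -0.29 and 0.067 between 24 and 72 h of BMP4. Counts of called members moved by over 1.5 times in these cases, and the cause was not tested. At 6 h of Gata6 loss the count of 4 became 8 with no filter, 2 with the covariate or only the libraries compared, and 17 without the 4 libraries that stood apart, while leaving out 1 library gave 0 to 11. At 24 h of Gata6 loss the count of 5 became 11 without those 4 libraries and 2 to 9 with 1 left out. At 6 h of Sox17 loss the count of 2 became 4 with no filter or DESeq2, 1 with the replicate block, 7 without the 4 libraries, 11 with only the libraries compared and 1 without any single library. At 24 h of Sox17 loss 15 became 5 with only the libraries compared (10 to 13 with 1 left out). In the FoxA2 mutant the Gata6 count of 0 became 2 with no filter, 1 with DESeq2, the replicate block or the covariate, and 2 without the 4 libraries; the Sox17 count of 2 became 5 with DESeq2 or only the libraries compared, 4 with the covariate or without the 4 libraries, and 1 to 2 with 1 left out. At 24 h of BMP4 25 became 2 with only the libraries compared, and between 24 and 72 h 27 became 13 with the covariate. Leaving out 1 library at a time gave 22 to 28 called members at 48 h of Gata6 loss, 22 to 23 at 48 h of Sox17 loss, 24 to 26 at 72 h of BMP4, and 19 to 25 and 30 to 31 for the FoxA2 mutation in the Gata6-FKBP and Sox17-FKBP lines. The lone sample of a group is then assumed to vary like the others. With 2 libraries a group, small changes of low genes such as Eno2 and Pfkp are not resolved.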

Other observations

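Genes that the stress-activated factor ATF4 switches on were read as a further list of 17. In the untreated Sox17-FKBP FoxA2 mutant 14 were higher and 1 lower, with a median log2 change of 1.26 beside 0.02 over all tested genes (background 26% higher and 24.6% lower). Asns, asparagine synthetase, was 838 and 865 CPM there against 134 and 136 (2.65 ± 0.08, adjusted p = 4.2e-21), Mthfd2, of mitochondrial folate metabolism, differed by 1.30 ± 0.07, and Vldlr, a lipoprotein receptor, by 5.15 ± 0.17. In the Gata6-FKBP mutant 5 were higher and 7 lower, with a median of 0.14 (background 24.6% and 23.7%). At 48 h of Gata6 loss 7 were higher and 4 lower (background 18.2% and 21.9%), led by Vldlr (3.13 ± 0.16), Nupr1 (3.27 ± 0.18) and Ddit3, which encodes the stress factor CHOP (1.49 ± 0.11), with Psat1, of serine synthesis, lower (-0.61 ± 0.07).

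Of 15 regulators of HIF, 4 were higher and 3 lower at 48 h of Gata6 loss, shares near those of all tested genes (background 18.2% and 21.9%), and 4 and 0 at 48 h of Sox17 loss (background 16.3% and 14.6%). Cited2, a co-factor that competes with HIF alpha for p300, was 610.3 and 665 CPM at 0 h and 1025 and 915 at 48 h of Gata6 loss (0.60 ± 0.09, adjusted p = 4.2e-06), and 543 and 547 and 851 and 954 for Sox17 loss (0.73 ± 0.09, adjusted p = 3.4e-07). Vhl rose by 0.38 ± 0.09 and 0.53 ± 0.09. Mitochondrially encoded transcripts, 14 in all, were higher for 10 and lower for 0 at 72 h of BMP4 (background 31.6% and 31.2%), where 25 of 27 nuclear respiratory genes were lower, and reads outside genes were then at their highest, 10.3 to 10.4 per 100 gene reads.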
